A study of Mus musculus with 10 samples.

Results

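The genes examined build the centromere and the kinetochore and run the spindle assembly checkpoint. They were chosen by symbol as the 21 genes named Cenp and 20 further genes of the kinetochore, the checkpoint and the chromosomal passenger complex, which gave 41 of the 16697 gene entries with a symbol. The rule uses symbols and no expression value, but it was written with earlier results of these data known. Cenpm, which encodes centromere protein M and is the gene that the title of the study names, was singled out. All 41 passed the filter on low values, an FPKM (fragments per kilobase of gene, scaled to sequencing depth) of at least 1 in at least 3 of the 10 libraries.

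RNA was sequenced from bulk mouse liver or liver tumor. Normal livers (NL, n = 4) came from wild-type mice. The tumors followed hydrodynamic tail vein injection, which delivers plasmids to hepatocytes, where a sleeping beauty transposase inserts them into the genome. The c-MYC tumors (n = 3) carried c-MYC with the empty pT3-EF1α vector, and the c-MYC/FOXO1AAA tumors (n = 3) carried c-MYC with FOXO1AAA, a form of FOXO1 that AKT cannot phosphorylate, in the same vector, so that both tumor groups share c-MYC and the ubiquitous EF1α promoter. The strain is C57BL/6 in the labels and FVB in their extraction text, a description of the series names c-MYC/MCL1 tumors under drugs that none of these samples carries, and the age of the mice was not used here. Libraries were not assigned to named animals or batches, so p-values measure only the spread between these libraries, which may be technical.

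At each division the centromere is marked by nucleosomes that hold the histone variant CENP-A. On them sits the constitutive centromere-associated network (CCAN), a group of subcomplexes to which CENP-M belongs together with CENP-H, CENP-I and CENP-K, and on the network the MIS12 and NDC80 complexes are assembled that grip microtubules. Unattached kinetochores recruit the checkpoint proteins, which hold back CDC20 and with it the anaphase-promoting complex, while the passenger complex around Aurora B corrects faulty attachments. Most adult hepatocytes rest outside the cell cycle, and many of these genes are transcribed mainly in cells that approach mitosis.

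The promoters of a few of the genes are shown because genes of late cell cycle are known to carry CCAAT boxes together with a cell cycle homology region, an element bound by the DREAM complex. The windows reach from 250 bases before to 50 bases after the start of transcription in RefSeq (GRCm38.p6), and 37 of the 41 genes matched with 42 windows. A set of 4 motifs was searched on both strands, none of which contains another. These were the E-box CACGTG that MYC and MAX bind, CCAAT, the cell cycle homology region as TTTGAA or TTCGAA, and the FOXO core TGTTTAC. In the lines below, read 5′ to 3′ along the gene, capitals mark every match to a motif.
Cenpm promoter, chr15:82244287-82244586, minus strand: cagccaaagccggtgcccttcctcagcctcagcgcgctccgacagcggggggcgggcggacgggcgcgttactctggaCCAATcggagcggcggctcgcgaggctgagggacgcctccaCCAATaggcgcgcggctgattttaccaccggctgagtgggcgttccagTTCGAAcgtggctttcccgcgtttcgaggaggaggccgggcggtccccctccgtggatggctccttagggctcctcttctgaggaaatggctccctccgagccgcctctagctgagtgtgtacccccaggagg
Spc25 promoter, chr2:69206164-69206463, minus strand: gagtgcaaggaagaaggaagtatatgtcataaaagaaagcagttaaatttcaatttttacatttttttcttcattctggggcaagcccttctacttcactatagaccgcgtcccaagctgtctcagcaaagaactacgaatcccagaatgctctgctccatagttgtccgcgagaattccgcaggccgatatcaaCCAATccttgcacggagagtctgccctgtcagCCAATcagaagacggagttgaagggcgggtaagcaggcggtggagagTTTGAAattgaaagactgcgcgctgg
Plk1 promoter, chr7:122159185-122159484, plus strand: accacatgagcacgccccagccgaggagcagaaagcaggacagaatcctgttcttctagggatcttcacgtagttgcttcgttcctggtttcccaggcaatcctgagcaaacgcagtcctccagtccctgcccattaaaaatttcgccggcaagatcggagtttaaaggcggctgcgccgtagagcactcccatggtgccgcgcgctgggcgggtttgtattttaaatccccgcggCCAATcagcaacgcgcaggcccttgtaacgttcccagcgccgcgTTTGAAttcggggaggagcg
Cenpx promoter, chr11:120713759-120714058, minus strand: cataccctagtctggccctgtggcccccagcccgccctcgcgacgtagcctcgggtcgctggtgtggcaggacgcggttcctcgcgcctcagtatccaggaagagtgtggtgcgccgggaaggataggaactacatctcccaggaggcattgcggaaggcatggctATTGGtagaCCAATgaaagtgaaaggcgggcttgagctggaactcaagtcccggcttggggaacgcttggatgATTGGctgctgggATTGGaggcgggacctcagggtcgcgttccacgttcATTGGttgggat
Cenpb promoter, chr2:131180018-131180317, minus strand: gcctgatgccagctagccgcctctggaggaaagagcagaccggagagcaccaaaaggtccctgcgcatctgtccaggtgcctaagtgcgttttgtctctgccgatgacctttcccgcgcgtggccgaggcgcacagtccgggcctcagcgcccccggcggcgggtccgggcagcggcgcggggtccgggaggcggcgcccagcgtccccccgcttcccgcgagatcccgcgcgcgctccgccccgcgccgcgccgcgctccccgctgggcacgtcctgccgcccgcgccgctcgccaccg

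Cenpm is shown as the gene of the study, Spc25 because its levels followed those of Cenpm most closely among the 41, Plk1 as a mitotic kinase with a large change, and Cenpx and Cenpb because they differed between the tumors. The Cenpm window held 2 CCAAT boxes, which begin 172 and 131 bases before the start, and a cell cycle homology region 83 bases before it. It held neither an E-box nor a FOXO core. The paper reports a c-MYC site in a longer human CENPM promoter, from binding and reporter assays, which this mouse window does not address. Spc25 and Plk1 also had both CCAAT and the homology region. Cenpx, of whose 2 windows the first is printed, had 5 CCAAT matches and no homology region, and the Cenpb window had no match to any motif. The genes not matched were Spc24, Zwilch, Aurkb and Incenp.

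Over all windows of the group, CCAAT stood in 66.7% and in 37.4% of the 32851 windows of all genes. The homology region stood in 38.1% against 19.2%, and both together in 35.7% against 7.52%. The E-box was found in 7.14% of the group's windows and in 7.15% of all, and the FOXO core in 4.76% and 3.65%. The 14 genes with both CCAAT and the homology region were Bub1, Bub1b, Bub3, Cdc20, Cdca8, Cenpa, Cenpf, Cenpl, Cenpm, Cenpn, Cenpw, Plk1, Spc25 and Ttk. Of these, 13 rose in c-MYC tumors, Cenpl being the exception. Of all 41 genes 33 rose (80.5%), and of all genes tested 24.5%. The share that rose among all genes with both motifs was not computed. The motif shares describe letters in a window, and no link of motifs to changes was tested.

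The recovered reads in genes with a symbol summed to 13123719 to 20547746 per library. These sums are estimates, since only 14496 of the 16697 genes had a single whole-read solution. The authors' scaling factors, estimated with these sums, were 0.649 to 0.684 in NL, 1.256 to 1.295 in c-MYC and 1.454 to 1.502 in c-MYC/FOXO1AAA. When each library was given the same FPKM total, the center of all genes shifted from 0.08 to 1.01 on the log2 scale in c-MYC versus NL, from 0.21 to 1.31 in c-MYC/FOXO1AAA versus NL and from 0.03 to 0.2 between the tumors, and the share of calls that were higher went from 51.0% to 78.8%, from 54.0% to 79.5% and from 55.5% to 63.6%. Mouse Foxo1 lay at 6.67 to 7.86 FPKM in NL, 5.16 to 6.45 in c-MYC and 70.1 to 95.6 in c-MYC/FOXO1AAA, highest where FOXO1AAA was injected. Mouse Myc lay at 4.1 to 22.2 FPKM in NL and at most at 1.04 in tumors, and whether reads of the injected c-MYC count in this row is not given in the sources used here, so that it does not check the label. The 6 hepatocyte markers summed to 74650 to 83050 FPKM in NL, 3536 to 5492 in c-MYC and 841 to 1526 in c-MYC/FOXO1AAA. The 4 stellate and fibroblast markers summed to 70.1 to 90.4 FPKM in NL, 6.33 to 22.4 in c-MYC and 233 to 337 in c-MYC/FOXO1AAA, the 4 macrophage markers to 162 to 282 in NL and 37.1 to 62.6 across the tumors, and the 2 listed B cell markers to 0.211 to 1.18 in NL, at most 0.157 in c-MYC and 6.89 to 11.8 in c-MYC/FOXO1AAA. For the other lists, the sums over NL, c-MYC and c-MYC/FOXO1AAA reached at most 4.44, 30.6 and 11.7 FPKM for cholangiocytes, 28.8, 2.04 and 4.81 for erythroid cells, 14.9, 10.8 and 7.31 for endothelium, and 0.483, 0.331 and 0.116 for the T cell gene Cd2. In whole tissue, fewer cells of a type and less RNA per cell cannot be told apart, and the part of these other cells in the results was not tested.

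**Figure D1:**
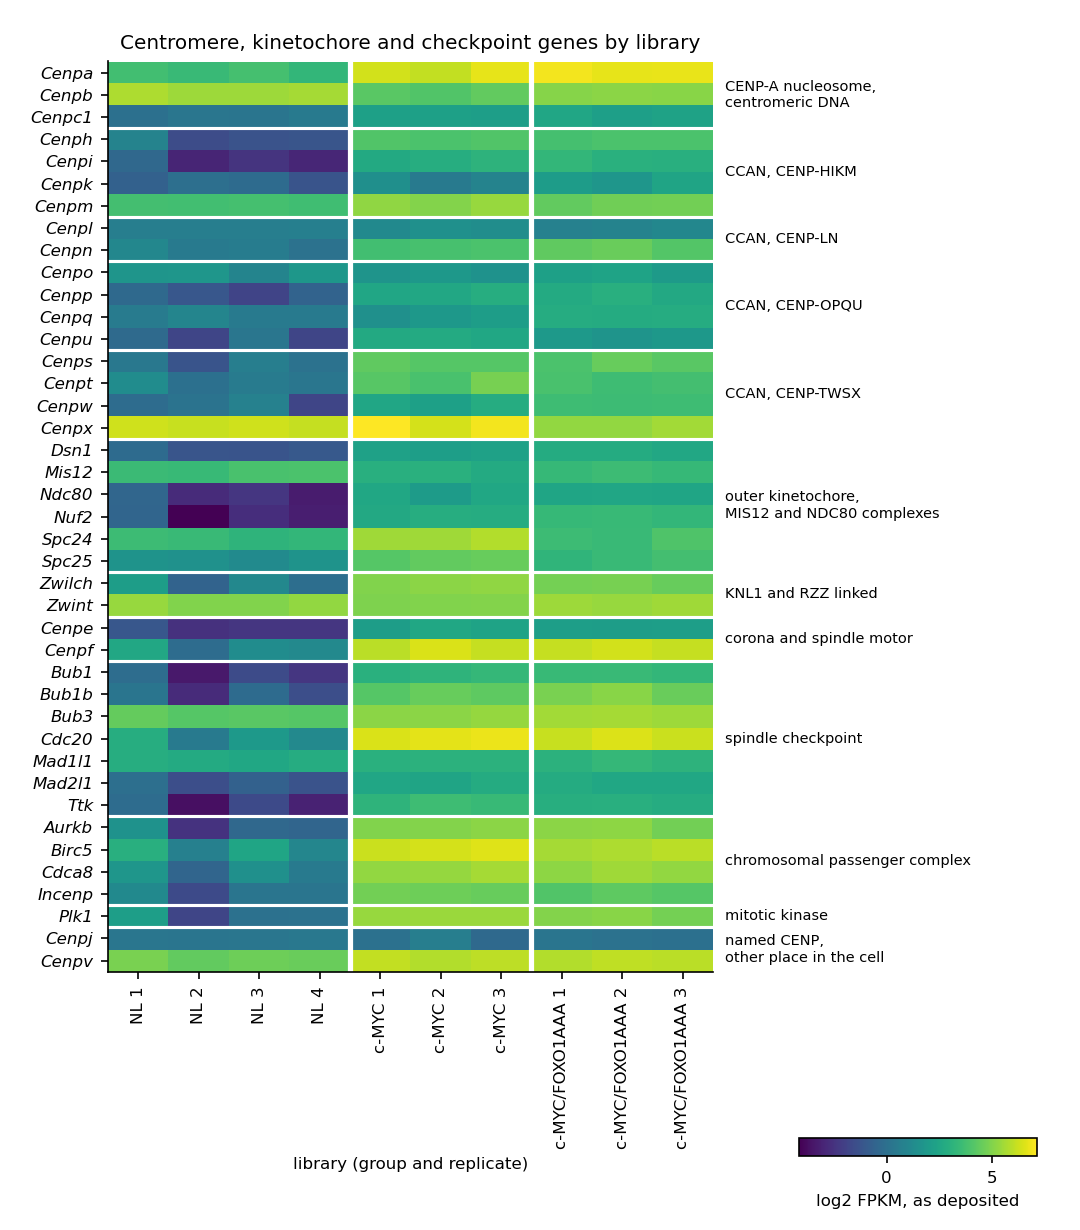
Log2 FPKM as deposited of the 41 genes (rows, grouped by role) in each of the 10 libraries (columns). Brighter is higher. Most rows are darkest in the 4 NL libraries, with NL 1 above NL 2 to 4 in 29 of the 41 genes, and Cenpb is brightest in NL.

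Cenpm was present in normal liver at a level that the rest of its complex did not reach. In NL it stood at 13.4, 12.8, 13.5 and 12.6 FPKM (89 to 117 reads), in c-MYC at 37.7, 32.6 and 40.8 FPKM, and in c-MYC/FOXO1AAA at 20.7, 25.3 and 26.2 FPKM. The 3 groups do not overlap, with NL lowest, c-MYC/FOXO1AAA between and c-MYC highest, and the means were 13.1 FPKM ± 0.466 (SD, n = 4), 24.1 FPKM ± 2.94 (SD, n = 3) and 37.0 FPKM ± 4.15 (SD, n = 3). Against NL, Cenpm rose in c-MYC tumors by 1.49 (log2, SE 0.11, limma adjusted p 2.35e-05), a call kept under every alternative run (1.41 to 2.41, adjusted p 3.46e-08 to 0.00267). In c-MYC/FOXO1AAA tumors it also rose, by 0.87 (SE 0.11, limma adjusted p 0.0259), but this call was lost without NL 4 (0.85, adjusted p 0.056), without c-MYC/FOXO1AAA 2 (0.83, 0.0837) or 3 (0.8, 0.0935), with an equal median (0.63, 0.505), with a 2-fold threshold (adjusted p 1) and with voom on the recovered reads (0.87, 0.0895). Over all alternatives the value ranged from 0.63 to 1.97.

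Between the tumors, Cenpm was 0.62 lower on the log2 scale with FOXO1AAA (95% interval -0.88 to -0.35), a 1.53-fold difference of the fitted values that did not pass the test for a change above 1.5-fold (limma adjusted p 0.836). Tested against no change at all, the same difference had a limma adjusted p of 0.00114. The 3 c-MYC/FOXO1AAA libraries lie below all 3 c-MYC libraries. The difference is larger than the spread between libraries, and its size cannot be set apart from 1.5-fold. The gene lies at chr15:82233779-82244748 on the minus strand (GRCm38, GENCODE M21), no exon of another gene overlaps it, and the length of 789 bp behind its FPKM is that of an annotated transcript.

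The partners of CENP-M in its subcomplex differed from it in level, and Cenph and Cenpi also in size of change. Cenpk rose in c-MYC about as much as Cenpm (1.43 and 1.49 on the log2 scale). Cenph, whose product binds CENP-K, stood at 1.74, 0.254, 0.328 and 0.356 FPKM in NL, at 16.4, 14.9 and 16.4 in c-MYC and at 13.9, 14.9 and 15.2 in c-MYC/FOXO1AAA. Cenpi, which encodes the largest protein of the subcomplex, stood at 0.734, 0.0614, 0.118 and 0.0645 FPKM in NL, at 6.4, 7.19 and 8.73 in c-MYC and at 9.72, 7.81 and 7.64 in c-MYC/FOXO1AAA. In both genes NL 1 is far above the other normal livers and still below every tumor, and the tumor groups overlap. Cenph rose by 4.76 (SE 0.47, limma adjusted p 1.69e-05) and Cenpi by 5.04 (SE 0.54, limma adjusted p 2.64e-05) in c-MYC against NL on the log2 scale, and the values were 4.64 and 5.22 in c-MYC/FOXO1AAA.

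Cenpk stood at 0.555, 0.893, 0.784 and 0.341 FPKM in NL (4 to 11 reads), at 2.63, 1.26 and 1.75 in c-MYC and at 4.07, 3.31 and 5.35 in c-MYC/FOXO1AAA. The groups do not overlap, with NL lowest and c-MYC/FOXO1AAA highest. Its rise in c-MYC was 1.43 (SE 0.34, limma adjusted p 0.0333) and was not called without NL 1 (1.39, adjusted p 0.06), NL 4 (1.2, 0.0807), c-MYC 1 (1.17, 0.139) or c-MYC 3 (1.45, 0.0642), nor with a pseudocount of 1 FPKM (0.76, 0.358), an equal median (1.37, 0.0513), a 2-fold threshold (adjusted p 0.287) or voom (1.49, 0.0751). In all, 9 alternatives lost it. In c-MYC/FOXO1AAA against NL it rose by 2.6 (SE 0.34, limma adjusted p 0.000174), and against c-MYC the value was 1.17 (SE 0.36, limma adjusted p 0.197). Its exons overlap those of Ppwd1 on the opposite strand, and whether reads were counted by strand is not given in the sources used here.

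The FPKM ratios of Cenpm to Cenph and of Cenpm to Cenpi differed between the groups, without overlap. The ratio of Cenpm to Cenpk did not separate in this way, since NL and c-MYC overlapped in it. Other ratios within the subcomplex are not given, and this separation is not claimed for them. The ratio of Cenpm to Cenph in FPKM was 7.73 to 50.2 in NL, 2.19 to 2.49 in c-MYC and 1.5 to 1.73 in c-MYC/FOXO1AAA, and that of Cenpm to Cenpi was 18.3 to 208 in NL, 4.53 to 5.89 in c-MYC and 2.13 to 3.43 in c-MYC/FOXO1AAA. The lowest ratio in NL is that of NL 1 in both pairs. For Cenph and Cenpi the NL values rest on 1 to 24 reads.

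**Figure D2:**
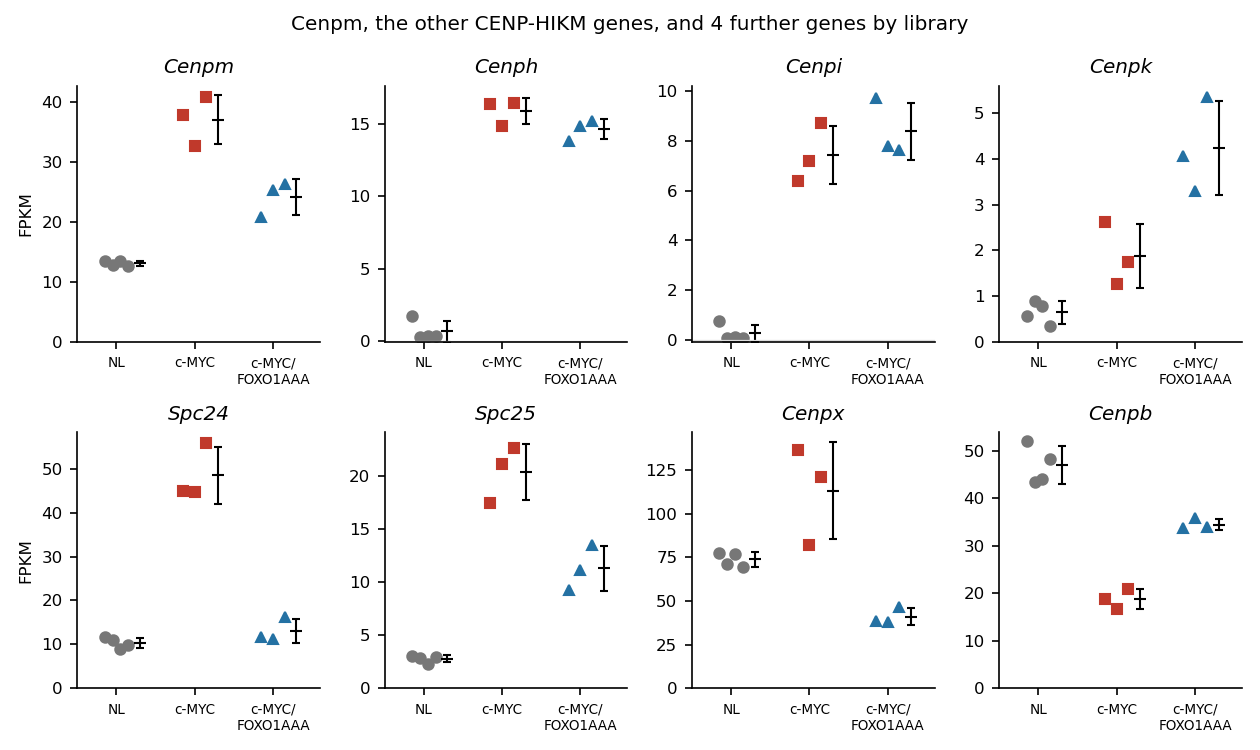
FPKM, recovered from the deposited log2 values, of 8 genes in each library (points), with the mean and SD of each group (bar to the right of the points, cut at the axis where it would pass below 0). Cenpm, Spc24, Spc25 and Cenpx are lower with FOXO1AAA than in c-MYC and Cenpk and Cenpb are higher, and only Spc24, Cenpx and Cenpb passed the test between tumors.

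Most of the genes rose in c-MYC tumors compared with normal liver. Of the 41 genes, 33 were higher and 1 lower (limma treat for a change above 1.5-fold, Benjamini-Hochberg adjusted p under 0.05 over the 14017 genes tested), whereas 24.5% of all genes tested were higher and 23.6% lower. The share higher among the 41 was 80.5%. Genes with every NL value below 1 FPKM, such as Cenpi, Ndc80, Nuf2 and Ttk, passed the filter on low values only through the tumors. Their calls against NL are thus not independent of that filter. With no filter, 33 of the 41 were higher in c-MYC and 32 in c-MYC/FOXO1AAA. Their median log2 fold change was 3.41, and that of all genes tested was 0.08. Of the members not called, Cenpl, Cenpx and Mad1l1 were above NL in every library, Mis12 was below it in every library, and Cenpo, Zwint and Cenpj overlapped with NL. The same FPKM total gave 37 higher and none lower (limma; Cenpb had -0.4, adjusted p 1), with a median of 4.34 against 1.01 for all genes, and under it Cenpb was not called while Cenpj, Mis12 and Zwint had values above 0. It also called 4 genes higher that are not called otherwise at this threshold, Cenpl (1.62, limma adjusted p 0.000172), Cenpx (1.51, 5.15e-05), Mad1l1 (1.23, 0.000258) and Cenpo (1.07, 0.0484).

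At the base of the centromere, Cenpa, the histone variant that marks it, stood at 12.9, 11.2, 13.5 and 9.7 FPKM in NL, at 79.8, 67.6 and 103 in c-MYC and at 119, 104 and 105 in c-MYC/FOXO1AAA. Tumors and normal livers are far apart, and Cenpa rose by 2.79 (SE 0.16, limma adjusted p 3.43e-07) in c-MYC and by 3.2 (SE 0.16, limma adjusted p 5.91e-08) in c-MYC/FOXO1AAA. Cenpc1, whose product links CENP-A nucleosomes to the MIS12 complex, rose by 1.97 and 2.11. Cenpb, which encodes the protein that binds a motif in centromeric repeats, went the other way, at 52.1, 43.4, 44.1 and 48.4 FPKM in NL, 18.9, 16.6 and 20.9 in c-MYC and 33.6, 35.9 and 33.9 in c-MYC/FOXO1AAA. None of the groups overlap for Cenpb. In c-MYC it fell by 1.32 (log2, SE 0.1, limma adjusted p 6.26e-05) and was the single member called lower, a call lost with the same FPKM total.

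In the rest of the CCAN, 7 of 10 genes rose in c-MYC. Of the CENP-L and CENP-N pair, Cenpn rose by 3.27 (SE 0.2, limma adjusted p 6.24e-07), while Cenpl, at 1.56 to 1.62 FPKM in NL and 2.3 to 2.84 in c-MYC, had 0.69 (SE 0.17, limma adjusted p 0.45). Among Cenpo, Cenpp, Cenpq and Cenpu, Cenpp had the largest value on the deposited scale, from 0.179 to 0.712 FPKM in NL (2 to 9 reads) to 5.62 to 7.23 in c-MYC, a rise of 3.6 (SE 0.32, limma adjusted p 7.91e-06). Cenpo, with 1.85 to 3.45 FPKM in NL and 2.92 to 3.53 in c-MYC, overlapped and had 0.14 (SE 0.22, limma adjusted p 1). Cenpq rose by 1.21 (adjusted p 0.0102), which was not called without c-MYC 3 (1.05, adjusted p 0.0509), with a pseudocount of 1 FPKM (0.84, 0.0934) or with a 2-fold threshold (0.372), and Cenpu by 3.55.

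The histone-fold proteins of the CENP-T, CENP-W, CENP-S and CENP-X branch, which reaches from DNA to the NDC80 complex, had unequal transcripts. Cenps stood at 1.05, 0.205, 1.38 and 0.86 FPKM in NL and at 20.2, 17.4 and 17.2 in c-MYC, a rise of 4.22 (SE 0.37, limma adjusted p 7.58e-06). Cenpt and Cenpw rose by 3.75 and 2.78. Cenpx, whose product also serves with CENP-S in the Fanconi anemia pathway of DNA repair, was the member with the highest FPKM in NL, at 77.6, 71.3, 76.8 and 69.4, and at 137, 82.2 and 121 in c-MYC, with 0.59 (SE 0.16, limma adjusted p 0.731). The FPKM ratio of Cenpx to Cenps was 55.5 to 348 in NL and 4.72 to 7.02 in c-MYC.

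In the outer kinetochore, 5 of 6 genes rose in c-MYC tumors. Nuf2, a subunit of the NDC80 complex, had the largest change of the group on the deposited scale, from 0.657, 0, 0.099 and 0.0539 FPKM in NL to 6.27, 7.21 and 7.0 in c-MYC, a log2 rise of 5.4 (SE 0.66, limma adjusted p 7.09e-05) that was 4.6 with a pseudocount of 0.1 FPKM and 2.67 with 1 FPKM. These NL values are 15, 0, 2 and 1 reads, and a count of 0 in NL 2 allows up to 3 reads, or 0.154 FPKM. Mis12, which names the complex that joins the CCAN to NDC80, had the smallest change, with 10.6 to 14.9 FPKM in NL and 6.5 to 7.83 in c-MYC, all below NL, and a log2 value of -0.78 (SE 0.14, limma adjusted p 0.181) that turned to 0.15 with the same FPKM total. Ndc80 rose by 4.58, Dsn1 by 3.12, Spc25 by 2.84 and Spc24 by 2.22. Of the 4 subunits of the NDC80 complex, Spc24 and Spc25 had the higher NL levels (9.06 to 11.6 and 2.28 to 3.02 FPKM, against at most 0.699 for Ndc80 and 0.657 for Nuf2).

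At the checkpoint, 6 of 7 genes rose in c-MYC. Ttk, the kinase MPS1 that starts the signal, had the largest log2 fold change of all 41 genes on the deposited scale, from 0.851, 0.037, 0.285 and 0.0776 FPKM in NL to 8.86, 12.0 and 10.7 in c-MYC, with 5.52 (SE 0.68, limma adjusted p 6.94e-05). That order depends on the reads added to low values, since with a pseudocount of 0.1 FPKM Ttk had 4.88, below Aurkb (5.19) and Plk1 (5.09), and with 1 FPKM it had 3.12, below Cenpf (4.37). Bub1b rose by 5.35, Bub1 by 5.03, Cdc20, the activator of the anaphase-promoting complex that the checkpoint restrains, by 5.01, and Mad2l1 by 3.41. Bub3, which also has roles outside the checkpoint, rose by 0.97 from 17.4 to 21.7 FPKM in NL. Mad1l1, the anchor of MAD2, had the smallest change of this group, with 5.9 to 7.27 FPKM in NL and 7.99 to 8.41 in c-MYC, and 0.31 (SE 0.11, 95% interval 0.06 to 0.56, limma adjusted p 1), an interval inside 1.5-fold with the authors' scaling but not with the same FPKM total (1.23).

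All 4 genes of the chromosomal passenger complex rose, with log2 fold changes from 4.57 for Cdca8 (SE 0.44, limma adjusted p 1.41e-05) to 5.44 for Aurkb (SE 0.71, limma adjusted p 0.000106). Aurkb, the Aurora B kinase, stood at 2.97, 0.116, 0.727 and 0.669 FPKM in NL and at 30.9, 31.9 and 35.3 in c-MYC. Cdca8, which encodes borealin, stood at 3.34, 0.652, 2.77 and 1.3 FPKM in NL and at 39.0, 39.6 and 47.3 in c-MYC. NL 2 is the lowest library for both and NL 1 the highest. Plk1, a kinase of mitotic entry and kinetochore attachment, had the same extremes, with 4.45, 0.241, 0.978 and 1.01 FPKM in NL and 41.1, 42.9 and 43.0 in c-MYC, and rose by 5.27 (SE 0.68, limma adjusted p 0.000103). Both genes of the fibrous corona and spindle motors rose, Cenpf by 4.93 (SE 0.49, limma adjusted p 1.68e-05) and Cenpe, a kinesin, by 4.41 (SE 0.33, limma adjusted p 1.78e-06).

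Zwilch, of the complex that brings dynein to kinetochores, and Zwint, which binds KNL1, differed. Zwilch stood at 4.23, 0.563, 2.07 and 0.828 FPKM in NL and at 31.2, 35.2 and 36.9 in c-MYC, with 4.45 (SE 0.51, limma adjusted p 5.3e-05). Zwint stood at 41.0, 31.4, 30.9 and 38.5 FPKM in NL and at 30.1, 30.9 and 31.8 in c-MYC, with -0.18 (SE 0.11, 95% interval -0.43 to 0.06, limma adjusted p 1). It was the third most abundant of the 41 in NL and overlapped with c-MYC. Cenpj, whose product belongs to the centriole, and Cenpv, whose product also acts at the spindle midzone, carry the name and are known for other places in the cell. Cenpj overlapped, with 1.17 to 1.28 FPKM in NL and 0.798 to 1.57 in c-MYC and a value of -0.15 (SE 0.25, limma adjusted p 1), and Cenpv rose by 1.37 (SE 0.12, limma adjusted p 8.98e-05).

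**Figure D3:**
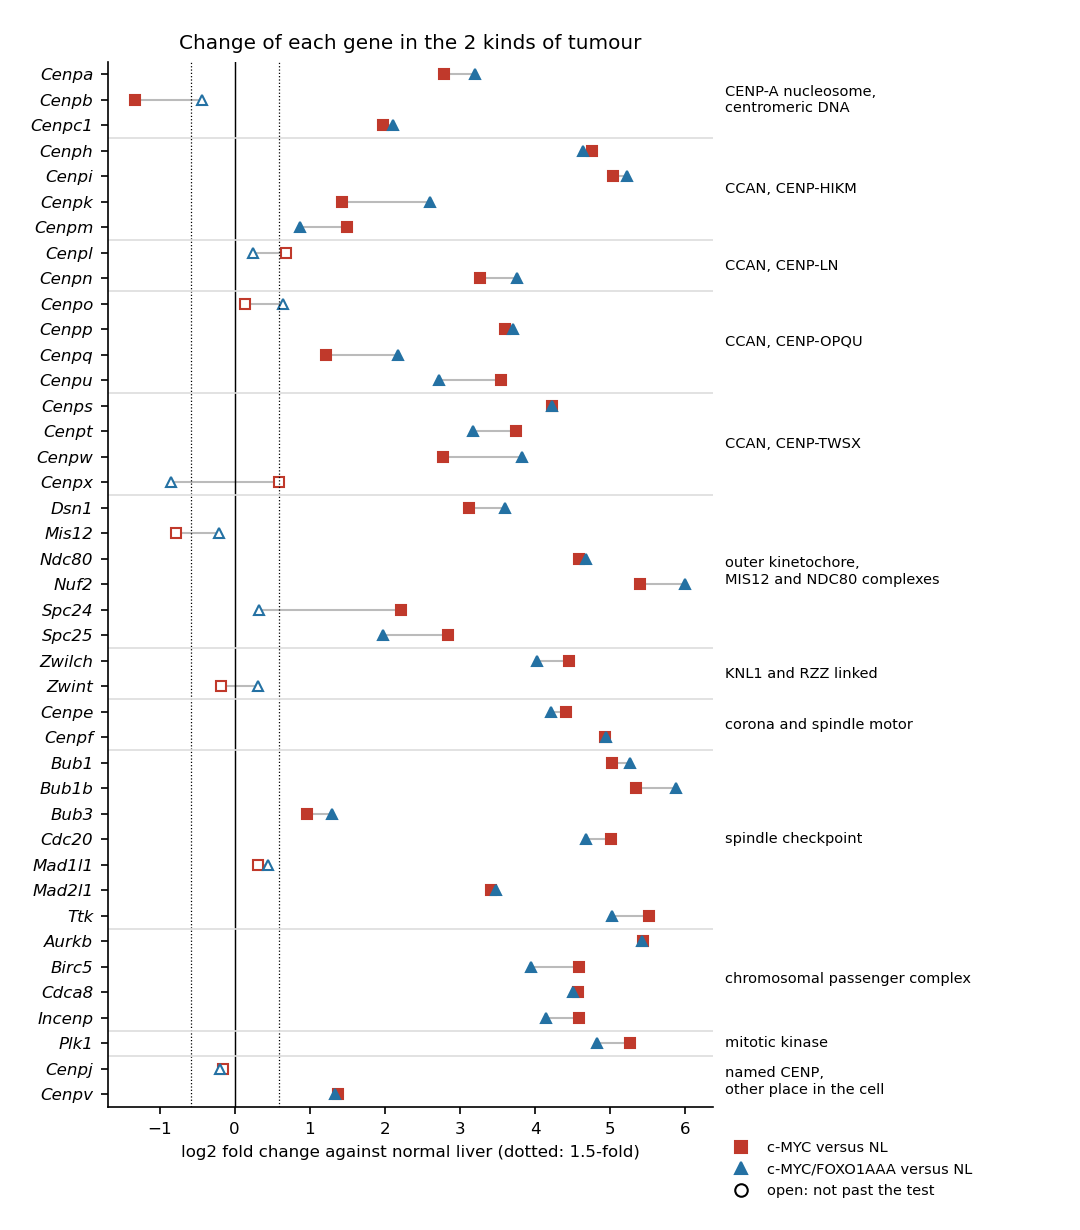
Log2 fold change against NL of each of the 41 genes in c-MYC (squares) and c-MYC/FOXO1AAA tumors (triangles), filled where the gene passed the test, with lines joining the pair. Most genes lie far to the right with the pair close together, and Spc24 and Cenpx have the longest lines. Both comparisons use the same 4 NL libraries.

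The normal livers were not alike in these genes. NL 1 was the highest of the 4 for 29 of the 41 genes and NL 2 the lowest for 24, and the median FPKM over the 41 was 2.25 in NL 1, 0.936 in NL 2, 1.38 in NL 3 and 1.17 in NL 4. The excess of NL 1 over the mean of the others reached 2.84 on the log2 scale for Nuf2, 2.71 for Plk1 and 2.68 for Aurkb, while for Cenpm it was 0.05. The 12 proliferation genes summed to 123 FPKM in NL 1 and to 67.1, 86.0 and 72.0 in NL 2, 3 and 4. The median SD of the log2 values over the 41 genes was 0.65 in NL, 0.16 in c-MYC and 0.14 in c-MYC/FOXO1AAA, and over all genes tested it was 0.19, 0.21 and 0.2. The spread of the 41 among normal livers was above that of all genes, and among tumors it was below. This comparison was not matched for level, and 9, 4 and 6 of the 41 genes had 3 reads or fewer in NL 2, NL 3 and NL 4. Without NL 1, 32 genes were higher in c-MYC with a median of 3.68, Cenpk being the call lost. The fold change then grew by over 1.5 times for 6 genes, to a log2 value of 6.18 for Ttk, 6.11 for Aurkb and for Nuf2, 5.95 for Plk1, 5.65 for Cenpi and 5.18 for Ndc80.

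**Figure D4:**
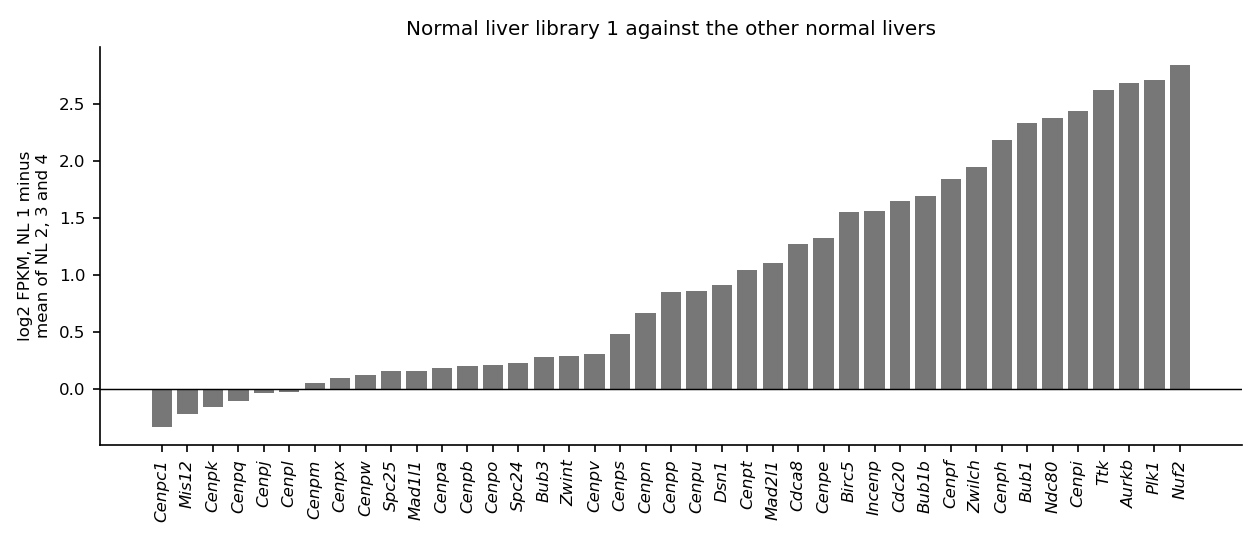
Difference in log2 FPKM between NL 1 and the mean of NL 2, 3 and 4 for each of the 41 genes, in order of size. The difference is close to 0 for Cenpm (0.05) and is 2.18 or more for Cenph, Bub1, Ndc80, Cenpi, Ttk, Aurkb, Plk1 and Nuf2 (2.84).

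Tumors with FOXO1AAA also stood apart from normal liver. Of the 41 genes, 32 were higher and none lower (limma treat as before; at an unadjusted p under 0.05 and by voom 0 were lower, and without a fold-change threshold 2 were, Cenpb and Cenpx), with 31.2% of all genes tested higher and 26.6% lower. The median log2 fold change was 3.6, against 0.21 over all genes. The largest on the deposited scale was that of Nuf2, at 6.0 (SE 0.66, limma adjusted p 2.11e-05). Spc24 and Cenpb were called in c-MYC against NL and not here, with 0.32 (SE 0.15, limma adjusted p 1) for Spc24, which was called with the same FPKM total (1.41, adjusted p 0.000103), and -0.44 (SE 0.1, limma adjusted p 1) for Cenpb. No gene was called here and not there. Cenpx was below every NL library, at -0.85 (SE 0.16, limma adjusted p 0.104), and passed the test in a fit of these 2 groups alone (adjusted p 0.0286), without a fold-change threshold (0.000473), with an equal median (-1.09, adjusted p 0.0123) and without c-MYC 2 (-0.85, adjusted p 0.0249).

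The comparison of the tumors asked whether active FOXO1 changed these genes when c-MYC was present. It shares the c-MYC libraries with the first comparison and the c-MYC/FOXO1AAA libraries with the second. Of the 41 genes, 38 did not pass the test, 1 was higher and 2 were lower with FOXO1AAA. Those 3 make up 7.32% of the set, whereas 28.7% of all genes tested were called, 15.9% higher and 12.7% lower. The median log2 fold change was 0.02 over the 41 and 0.03 over all genes.

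Spc24, the subunit that with SPC25 anchors the NDC80 complex to the inner kinetochore, had the largest difference. It stood at 44.9, 44.7 and 55.9 FPKM in c-MYC, at 11.8, 11.2 and 16.1 in c-MYC/FOXO1AAA, and at 11.6, 11.01, 9.06 and 9.79 in NL. The c-MYC libraries are apart from all others, and c-MYC/FOXO1AAA overlaps with NL. Spc24 fell by 1.9 (log2, SE 0.16, limma adjusted p 4.26e-05), and the fall was called under every alternative run, with values from -2.08 to -1.73 and adjusted p from 3.2e-06 to 0.000894. The gene lies at chr9:21755442-21760303 on the minus strand, with no overlap in exons. Its partner Spc25 stood at 17.5, 21.1 and 22.7 FPKM in c-MYC and at 9.3, 11.1 and 13.5 in c-MYC/FOXO1AAA, and its value of -0.86 (SE 0.17) did not pass (limma adjusted p 0.202) except with an equal median (-1.03, adjusted p 0.0416) and where no fold-change threshold was set (adjusted p 0.00144).

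The other subunits of the NDC80 complex, which bind microtubules, had other values. Ndc80 stood at 5.87, 4.1 and 5.81 FPKM in c-MYC and 5.42, 5.66 and 5.56 in c-MYC/FOXO1AAA, with 0.09 (95% interval in the tumors alone -0.32 to 0.51), and Nuf2 was higher in every c-MYC/FOXO1AAA library, with 0.61 (interval 0.32 to 0.89). The FPKM ratio of Spc24 to Ndc80 was 7.66 to 10.9 in c-MYC and 1.98 to 2.9 in c-MYC/FOXO1AAA, without overlap. Within the libraries, these transcripts of the complex differed unequally.

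Cenpx was the other gene that fell, from 137, 82.2 and 121 FPKM in c-MYC to 38.4, 38.0 and 46.8 in c-MYC/FOXO1AAA, below the 69.4 to 77.6 of NL. The log2 difference was -1.43 (SE 0.17, limma adjusted p 0.00132), with adjusted p from 3.53e-05 to 0.0683 over the alternatives, the highest being that of a threshold of 2-fold. Cenps, its partner, stood at 17.2 to 20.2 FPKM in c-MYC and 14.7 to 22.2 in c-MYC/FOXO1AAA, with 0.0 (95% interval in the tumors alone -0.38 to 0.38). Cenpx lies at chr11:120710942-120713738 on the minus strand.

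Cenpb was higher with FOXO1AAA, by 0.88 (SE 0.11, limma adjusted p 0.0419), between c-MYC and NL. This call is close to the threshold and was lost on leaving out any of NL 3, NL 4, c-MYC 1, c-MYC 2 and the 3 c-MYC/FOXO1AAA libraries (adjusted p from 0.0521 to 0.141), with an equal median (0.71, adjusted p 0.342) and in a fit of the tumors alone (0.0615). In all, 13 alternatives lost it, and the log2 value stayed between 0.71 and 1.09. Cenpb lies at chr2:131175182-131180067 on the minus strand and shares exon sequence with Spef1 on the same strand.

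The nearest to the threshold among the others, beside Spc25, were Cenpq and Cenpk. Cenpq stood at 2.78, 3.55 and 4.35 FPKM in c-MYC and at 6.94, 6.9 and 6.96 in c-MYC/FOXO1AAA, with 0.97 (SE 0.21, limma adjusted p 0.13), and its exons overlap those of Mut on the opposite strand. With the same FPKM total it was called (1.14, adjusted p 0.0459). Cenpw, at 4.75 to 7.04 FPKM in c-MYC and 11.9 to 12.2 in c-MYC/FOXO1AAA, had 1.05 (SE 0.51, limma adjusted p 0.477) in the fit of all libraries and passed in the fit of the tumors alone (SE 0.16, limma adjusted p 0.0373).

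The fit of all libraries shares 1 estimate of the spread with the variable normal livers, and in it 4 of the 41 genes (Bub3, Cenpc1, Cenpv and Mad1l1) had a 95% interval inside 1.5-fold. In the fit of the 6 tumors alone there were 14, namely these and Aurkb, Bub1, Cdca8, Cenpf, Cenph, Cenpi, Cenpp, Cenps, Mad2l1 and Ndc80. For the kinase Aurkb the interval was -0.36 to 0.34 and for Cenpf -0.33 to 0.37. With the 1.5-fold threshold, 3 genes were called in this fit (Spc24 and Cenpx lower, Cenpw higher), where 28.8% of all genes were. With no threshold, a version added after the data had been seen, 22 were called (12 higher and 10 lower), which is 53.7% against 56.2% of all genes, and in the fit of all libraries 10 were called (6 higher and 4 lower), where 54.8% of all genes were. The tumor groups did not overlap for 14 genes with FOXO1AAA higher (34.1%) and 12 with it lower (29.3%), and over all genes tested for 32.7% and 30.7%. In the tumors alone, the share without a threshold lies near that of all genes.

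**Figure D5:**
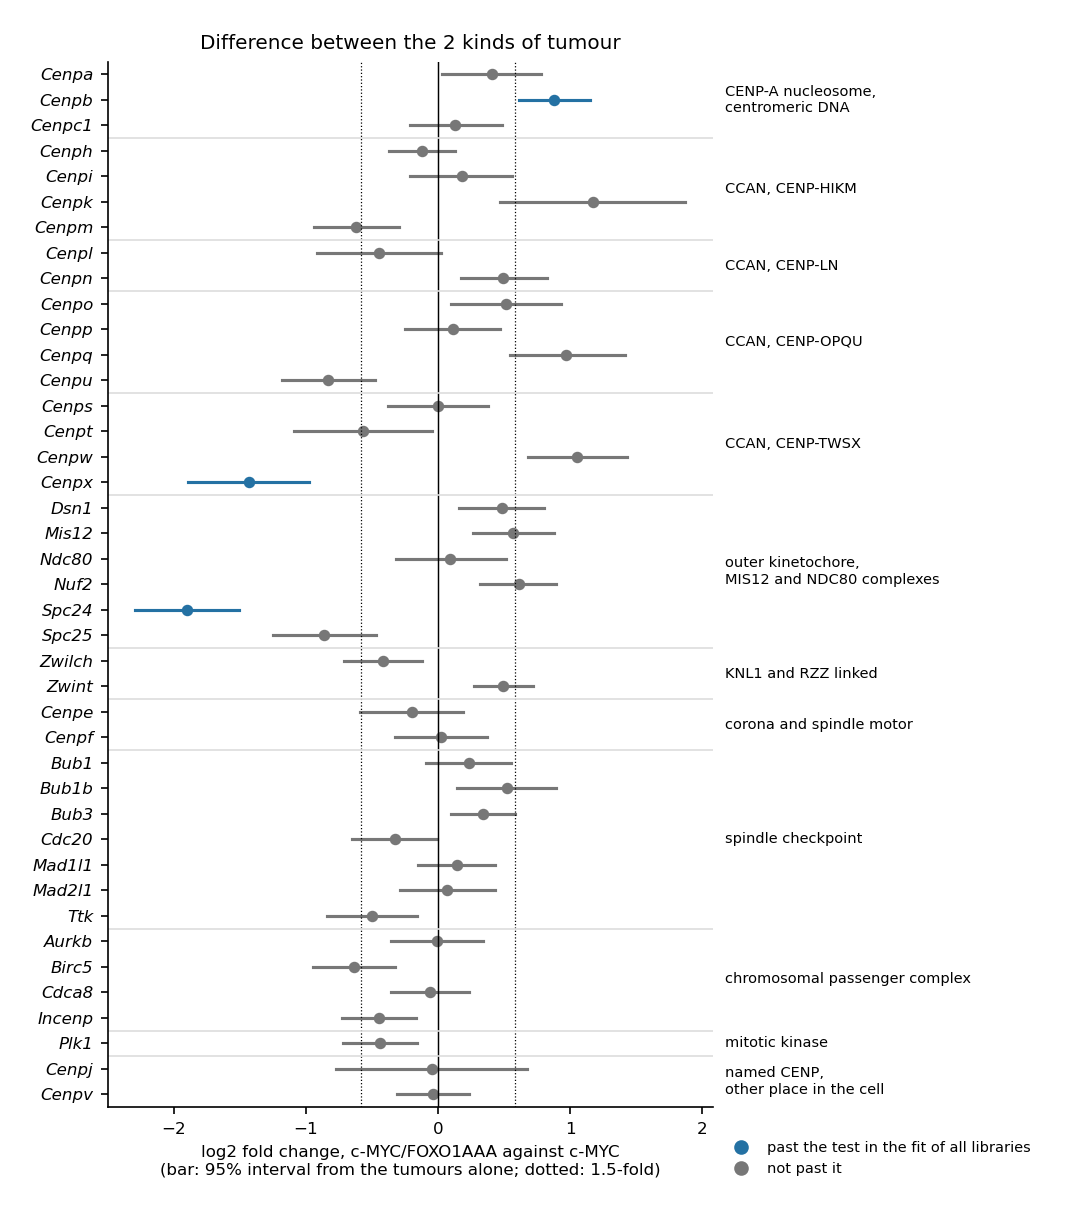
Log2 fold change of c-MYC/FOXO1AAA against c-MYC (points) with 95% intervals from the fit of the tumors alone (bars), by role. Spc24 and Cenpx stand on the left and most intervals touch or lie within the dotted lines at 1.5-fold. Blue marks the 3 genes that passed in the fit of all libraries.

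Among the 12 genes on the lower side with FOXO1AAA without overlap were Birc5, Incenp, Plk1 and Ttk, each without passing the test. The CCAN genes Cenpu (-0.83), Cenpt (-0.57) and Cenpl (-0.45) and also Zwilch (-0.42) stood on that side too and did not pass. Birc5, which encodes survivin, stood at 74.3, 82.1 and 94.0 FPKM in c-MYC and at 47.8, 52.5 and 60.3 in c-MYC/FOXO1AAA, Plk1 at 41.1 to 43.0 and 27.1 to 34.6, and Ttk at 8.86 to 12.0 and 6.93 to 7.71. The log2 values were -0.64 for Birc5, -0.44 for Plk1 and -0.5 for Ttk, with limma adjusted p of 0.958, 1 and 1 for a change above 1.5-fold. Among the 14 genes on the upper side without overlap were Bub1b, at 17.6 to 22.1 and 23.4 to 34.2 FPKM (0.52), Dsn1 (0.48), Zwint (0.49) and Bub3 (0.34), none of which passed either (limma adjusted p 1 for each). The CCAN genes Cenpn (0.49) and Cenpo (0.51) stood there too and did not pass. In the tumors alone without a threshold, Birc5, Incenp, Plk1, Ttk, Bub1b, Dsn1, Zwint and Bub3 were called (limma adjusted p from 0.00299 for Zwint to 0.0268 for Bub1b). Cenpu (limma adjusted p 0.00208), Zwilch (0.0229), Cenpn (0.0182) and Cenpo (0.0408) were called as well. Cenpt (0.0624) and Cenpl (0.0944) were not. Such calls covered 53.7% of the set and 56.2% of all genes.

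Other genes of the same processes are given for comparison. Of 8 genes of CENP-A loading, 5 rose in each kind of tumor against NL and 0 were called between the tumors (limma; 0 at an unadjusted p under 0.05 and 0 by voom). Hjurp, the chaperone of CENP-A, stood at means of 1.91, 8.19 and 8.29 FPKM in NL, c-MYC and c-MYC/FOXO1AAA. Of 14 kinetochore partners, 12 rose in c-MYC and 11 in c-MYC/FOXO1AAA, with medians of 4.55 and 4.4 on the log2 scale, and 0 were called between the tumors (limma; 1 at an unadjusted p under 0.05, Ska2, and 1 by voom), where the median was -0.17. Knl1, the scaffold for BUB proteins, had means of 1.55, 64.2 and 61.1 FPKM. Of 20 genes of the anaphase-promoting complex and separase, 12 rose in c-MYC, and 11 rose and 1 (Anapc13) fell in c-MYC/FOXO1AAA. With FOXO1AAA, Anapc16 was above c-MYC (0.96, SE 0.13, limma adjusted p 0.0253). Of 4 checkpoint partners 3 rose in each kind of tumor, Trip13 by 4.05 in c-MYC. Usp44, which encodes a deubiquitinase of the checkpoint, was called higher with FOXO1AAA, at means of 0, 0.124 and 2.83 FPKM. It passed the filter on low values only through the c-MYC/FOXO1AAA libraries, so its call between the tumors is not independent of that filter. Its call in c-MYC against NL (1.62, limma adjusted p 0.028) rests on the mean of 0.124 FPKM. All 12 proliferation genes rose in both kinds of tumor, with medians of 4.49 and 4.28, and 0 were called between them (limma; 0 at an unadjusted p under 0.05 and 0 by voom), where the median was -0.33. Their sums were 814 to 872 FPKM in c-MYC and 777 to 954 in c-MYC/FOXO1AAA, which overlap. The sums weigh abundant genes most, such as Mcm7 with means of 232.7 and 302.5 FPKM in the 2 kinds of tumor. Mcm7, Pcna and Mcm3 had values above 0 with FOXO1AAA. The others had values below 0, the lowest being Mki67 (-0.75, SE 0.61, limma adjusted p 0.887), so the overlap of sums does not show equal proliferation.

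Across the 10 libraries the genes of the set most like Cenpm, by Pearson's r of log2 FPKM, were Spc25 (0.977), Cenpt (0.942), Birc5 (0.927), Cenpv (0.923) and Cenpu (0.916). Cenpb (-0.913) and Mis12 (-0.85) were the least like it. Among all genes tested, the most alike were Abhd14a (0.993), C1qbp and Timm50 (both 0.989), Rnaseh2b and Rac3 (both 0.987). C1qbp and Timm50 encode mitochondrial proteins, and none of these 5 belongs to the set. The 10 libraries fall into 3 groups that set most of each r, so that the values describe a common order of NL, c-MYC/FOXO1AAA and c-MYC. Abhd14a, for instance, had means of 11.6, 58.0 and 31.4 FPKM in NL, c-MYC and c-MYC/FOXO1AAA.

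Levels of different genes depend on the gene length that the authors used. For 16 of the 41 genes it was that of the longest annotated transcript, and for 11 the longest transcript was at least 2 times as long. The extreme was Cenpf, counted with 609 bp beside a longest transcript of 11130 bp, which puts it at rank 5 in c-MYC by FPKM and at rank 29 of 41 with the longer length. Cdc20 had rank 2 in c-MYC by FPKM, at a mean of 99.4 FPKM ± 10.5 (SD, n = 3), and rank 1 with the longest length, and Cenpm had ranks 10 and 7. Log2 fold changes on the deposited scale use 1 length per gene, which cancels in them. The filters on FPKM, the trend in the estimation and the fits with a pseudocount in FPKM do depend on the length. The value of Cenpf with 1 FPKM added, and its place above Ttk there, thus rest on the 609 bp. The exons of 13 genes overlap another gene's.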

How the data were processed

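Libraries were assigned to groups by their titles in the labels, NL (n = 4), c-MYC (n = 3) and c-MYC/FOXO1AAA (n = 3). The authors deposited log2 FPKM by gene symbol, which they had derived from read counts with edgeR. The build GRCm38 and FastQC 0.11.7 are named in the submitters' processing notes, and the aligner and counter are not given in the sources used here. Each value includes 2 added reads, in proportion to library size, so whole reads could be recovered (within 0.02 of a read), with a single solution for all 41 genes. FPKM in the text are those of the recovered reads, without the added reads. Of 17069 rows, 372 had no symbol and were left out.

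Deposited log2 values were fitted with limma 3.58.1 (R 4.3.3, statmod 1.5.0) over all 10 libraries, with genes of at least 1 FPKM in at least 3 libraries. Changes above 1.5-fold in either direction were tested with treat, using trend and robust estimation and Benjamini-Hochberg adjustment over 14017 genes. The script was tested on simulated data. Log2 fold changes include the added reads and understate the change of low genes. No count model was used for the main results. Intervals and floors cover the fit or counting error only.

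The members, the gene lists, the motifs and the tests were chosen with earlier results of these data known. Genes named with values were Cenpm and its subcomplex, the largest and smallest change of each role in c-MYC versus NL, the genes called between tumors with the 3 nearest to the threshold, and genes called against NL in only 1 kind of tumor. Others in the text were picked after their values were seen. Alternatives were 2 pseudocounts, 2 filters, 3 scalings, 2 thresholds, trend and robust estimation off, the 2 groups alone, a replicate block and each library left out. The fit of 2 groups without a threshold and voom on recovered reads were added after the data had been seen. Positions are those of GENCODE M21 (GRCm38).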

Additional observations from a re-analysis of the deposited data

Results flagged for a closer look

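In the 4 normal livers, 1 library stood far from the others for 4 of the 41 genes by Dixon's test on log2 values, which flags about 1 in 20 groups by chance. The test was not run on the FPKM given below. On that scale NL 1 also stood far above the others for Cenpi, which was not flagged (0.734 against 0.0614 to 0.118). Cenph was 1.74 FPKM in NL 1 and 0.254 to 0.356 in the others. Cenpe was 0.458 FPKM in NL 1 and 0.161 to 0.183 in the others. Cenpq was 1.91 FPKM in NL 2 and 1.32 to 1.4 in the others. Cenpo was 1.85 FPKM in NL 3 and 3.21 to 3.45 in the others, and without NL 3 its log2 fold change in c-MYC versus NL was -0.06.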

How the results depend on the processing

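The counts of genes higher against normal liver kept within 1.5 times of 33 for c-MYC and of 32 for c-MYC/FOXO1AAA in all alternatives. Leaving out 1 library gave 31 to 33 and 31 to 32. Between the tumors, the 1 gene higher became 0 with a pseudocount of 1 FPKM, an equal median, a threshold of 2-fold, trend and robust estimation off or the replicate block, 2 with the same FPKM total, 6 without a fold-change threshold and 12 in the tumors alone without one, and 0 to 1 on leaving out 1 library. The 2 genes lower became 1 with a threshold of 2-fold, 3 with an equal median (Spc25 added), 4 without a threshold and 10 in the tumors alone without one, and stayed at 2 on leaving out any library. Cenpm in c-MYC versus NL had values from 1.41 to 1.58 without 1 library. Between the tumors it had -0.71 to -0.51 and passed only without a fold-change threshold (-0.62, adjusted p 0.00114, and 0.00563 in the tumors alone). In c-MYC/FOXO1AAA versus NL it had 0.8 to 0.97 and missed the threshold with an equal median (0.63, adjusted p 0.505), a threshold of 2-fold (0.87, adjusted p 1), the replicate block (0.85, adjusted p 0.0624) and voom (0.87, adjusted p 0.0895). Signs turned, none of them called, for Cenpj (0.78 with the same FPKM total and -0.41 to 0.06 without 1 library, turning without c-MYC 3), Mis12 (0.15), Zwint (0.74) and Cenpo (-0.06 to 0.23 without 1 library, turning without NL 3) in c-MYC versus NL, for Cenph between the tumors (0.05) and for Cenpb in c-MYC/FOXO1AAA versus NL (0.66), with the same FPKM total unless another is named. Replicate numbers did not pair the libraries (correlation of same-numbered deviations -0.039 to 0.028), so the block uses a shared number only. The replicate block gave 32 and 31 genes higher against NL and changed 1 other call, that of Cenpk in c-MYC versus NL, beside those of Cenpb between the tumors and Cenpm. The causes were not tested. Genes with few reads in NL, such as Nuf2, Ndc80 and Cenpi, have fold changes limited by that depth.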
